A study of Mus musculus with 6 samples.

Results

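The regions described here are the DNase I hotspots of 3 windows around late lipopolysaccharide (LPS) response genes, Il6, Il12b and Nos2, in primary macrophages grown from the bone marrow of C57BL/6J mice. The libraries form 3 groups of 2. Cells of the first received Dex, the glucocorticoid of the study, before 8 h of LPS. Cells of the second were labelled as treated late with Dex, also with 8 h of LPS, and cells of the third received 8 h of LPS alone. All 6 libraries thus come from LPS-treated cells. A Dex dose and the interval between Dex and LPS are not given in the labels used here. Nothing in the labels says that the libraries of a group came from separate animals or cultures, so the spread between them may be technical. DNase-seq marks open chromatin, where a light DNase I digestion cuts DNA most often, and a hotspot is a stretch where the cuts, counted as sequenced tags, pile up. In bulk libraries such as these, fewer cells with an open site and less cutting per cell cannot be told apart.

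With earlier results of these data known, members were taken by position. They are all hotspots that overlapped chr5:30250000-30420000 (Il6), chr11:44130000-44290000 (Il12b) or chr11:78680000-78830000 (Nos2) in mm9, the build of the deposited positions. Of 253044 hotspots in the 6 lists, 153 were members. Merging hotspots that overlapped between libraries by at least 1 bp gave 36 member regions, of 59069 in all. They were lettered along the chromosome, Il6-A to Il6-M, Il12b-A to Il12b-K and Nos2-A to Nos2-L. All 6 libraries listed 15 of the 36 regions (41.7%), against 25091 of all 59069 (42.5%), and 6 of the 36 were in a single library. The median width was 724 bp for the member regions and 731 bp for all regions. No gene model of mm9 was used here. Regions therefore carry the name of their window and are not placed at a promoter, an intron or an enhancer. The same limit kept the macrophage label from being checked against marker genes, and no transcript levels were used here, so the description of these genes as late rests on background.

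Il6 encodes interleukin-6, a secreted cytokine of fever and the acute phase response. Il12b encodes the p40 subunit of interleukin-12, which macrophages secrete to drive type 1 T helper cells. Nos2 encodes the inducible nitric oxide synthase, which makes nitric oxide against microbes. In macrophages, LPS signals through Toll-like receptor 4 to the transcription factor NF-kB, which acts with AP-1, C/EBP and interferon regulatory factors. Late response genes of this kind are known to need new protein synthesis and chromatin remodelling before full transcription. The glucocorticoid receptor, bound by its steroid, is known to repress many such genes.

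The 250 bases before the start of Il6 and Il12b follow, from the RefSeq promoter table (GRCm38.p6, plus strand, 5′ to 3′). Binding of these factors to them was not measured here. Of the 3 genes, 2 were matched in that table by symbol. The table's build differs from mm9, so these stretches were not matched to any hotspot. Capitals mark matches, on either strand, to 5 sets of letters, where N is any base. They are those of NF-kB (GGG, any 5 bases, CC), AP-1 (TGANTCA), C/EBP (TTNNGNAA), interferon regulatory factors (GAAA, any 2 bases, GAAA) and the glucocorticoid receptor (GNACA, any 3 bases, TGTNC).
Il6, chr5:30012864-30013113: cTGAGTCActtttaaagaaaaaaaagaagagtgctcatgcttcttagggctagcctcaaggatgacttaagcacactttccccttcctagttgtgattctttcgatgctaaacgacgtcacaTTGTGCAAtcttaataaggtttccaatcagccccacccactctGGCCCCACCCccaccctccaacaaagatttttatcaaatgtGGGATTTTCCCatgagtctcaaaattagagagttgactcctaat
Il12b, chr11:44399813-44400062: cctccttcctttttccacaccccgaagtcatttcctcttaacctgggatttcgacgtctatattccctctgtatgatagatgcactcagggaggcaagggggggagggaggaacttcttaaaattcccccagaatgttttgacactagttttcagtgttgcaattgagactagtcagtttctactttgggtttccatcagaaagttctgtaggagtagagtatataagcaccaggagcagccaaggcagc

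In the Il6 stretch the NF-kB letters matched as GGGATTTTCC, starting 44 bases before the gene's start, and on the other strand 1 base further on, so that both matches overlap. They also matched on the other strand as GGCCCCACCC, 85 bases before the start. The C/EBP letters matched once, as TTGTGCAA at 128 bases, and the AP-1 letters once, as TGAGTCA at 249 bases. In the Il12b stretch none of the 5 sets of letters occurred. Among 32851 promoter stretches of the same length, 45.8% held the NF-kB letters, 36.8% the C/EBP letters, 6.75% the AP-1 letters, 2.98% the interferon regulatory factor letters and 0.387% the glucocorticoid receptor letters. A match in short, loose letters is thus common by itself and is given as a description.

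Libraries differed in the length of their lists. The pre-treated lists held 34646 and 44686 hotspots, the late-treated lists 29347 and 44447, and the LPS lists 48084 and 51834. The lowest z-score kept was smaller in both LPS lists than in any Dex list, and the authors' density values are not stated to be comparable between lists. Maximum tag density, the highest pile-up inside a hotspot, is given as deposited for each library. For the 25091 regions that all 6 libraries listed, called shared regions below, the log2 maximum density was quantile-normalised, which keeps the order of regions within a library and gives every library the same distribution. It was then fitted for all shared regions together with limma, and p-values were adjusted over all of them with the Benjamini-Hochberg method. A region was called changed at an adjusted p under 0.05.

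**Figure D1:**
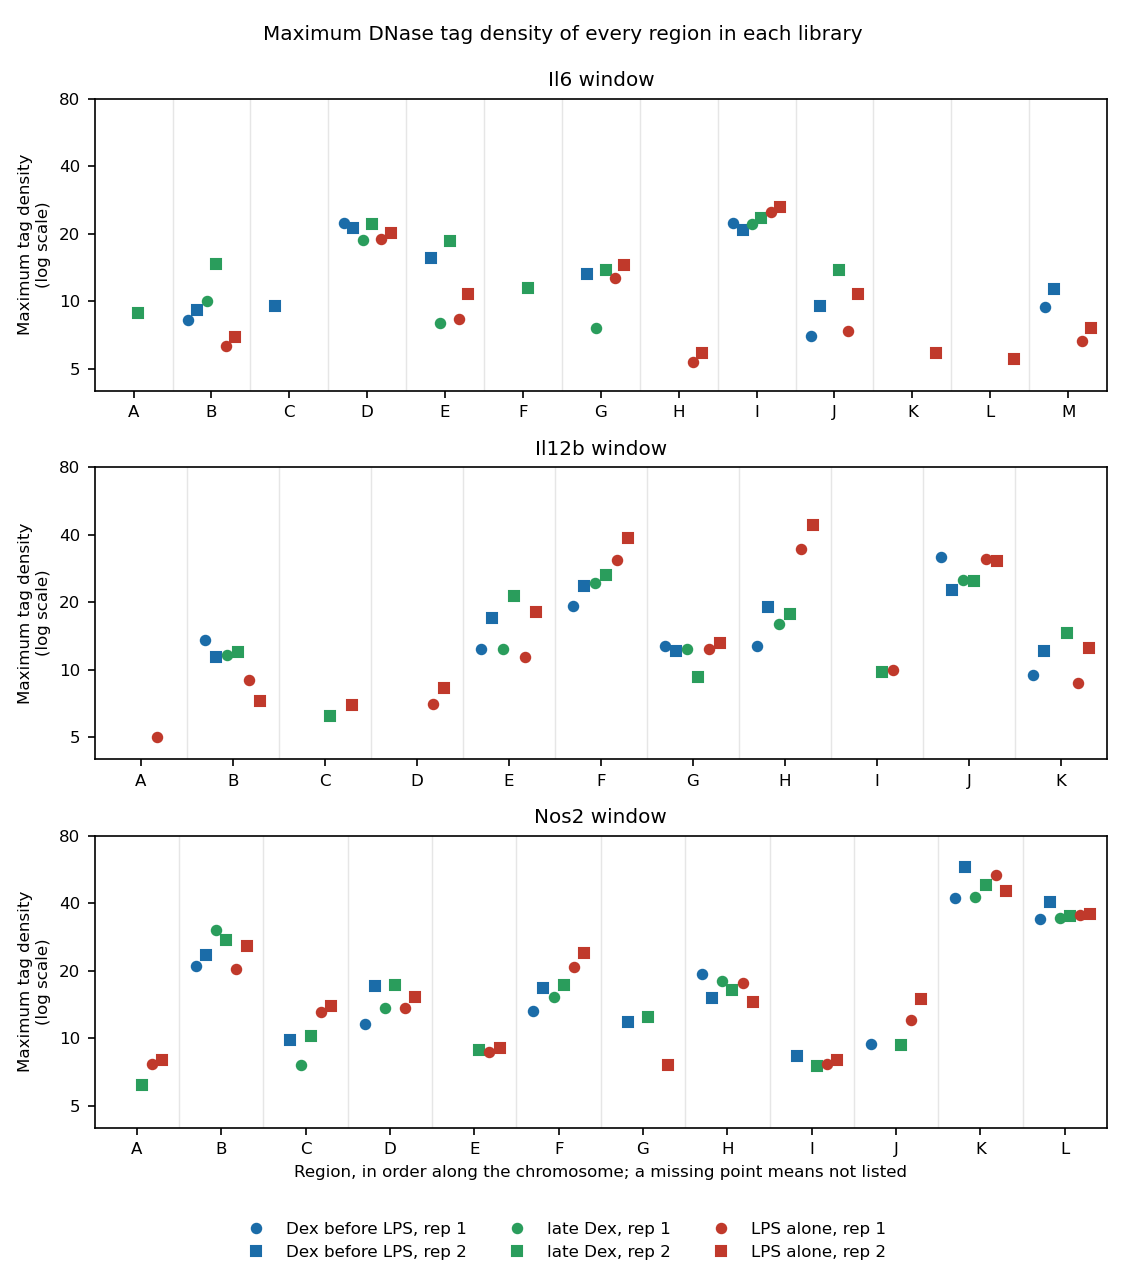
Maximum tag density (y axis, log scale, as deposited) of each region (x axis, lettered along the chromosome) in the Il6, Il12b and Nos2 windows, 1 point for each library that listed it, coloured by group and shaped by replicate. In Il12b-H the 4 Dex libraries sit between 12.8 and 19.0 and the LPS libraries at 34.45 and 44.4, while Nos2-K and Nos2-L show no such gap.

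Among the members, the Il12b window held the largest difference. Region Il12b-H, at chr11:44227980-44229085, had maximum densities of 12.8 and 19.0 in the pre-treated libraries, 16.0 and 17.7 in the late-treated ones, and with LPS alone 34.45 and 44.4. Neither Dex group overlapped with LPS alone, and the Dex groups overlapped with each other. The mean was 15.9 ± 4.40 with Dex before LPS, 16.9 ± 1.21 with late Dex and 39.4 ± 7.06 with LPS alone (SD, n = 2 each). Against LPS alone, Il12b-H fell by 1.32 ± 0.23 on the log2 scale of normalised density with the 2 Dex groups averaged (SE; 95% interval -1.83 to -0.82; limma adjusted p = 0.0215). It was the 1 member region of 15 tested that passed in that comparison, where 0.821% of all shared regions were called, 0.223% lower and 0.598% higher. The other 21 member regions were not listed by every library and were not tested.

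Taken one at a time, the Dex groups gave like values for Il12b-H with the same LPS libraries. The log2 difference was -1.37 ± 0.27 (SE) with Dex before LPS, at a limma adjusted p of 0.0503, and -1.27 ± 0.27 with late Dex, at 0.0844. Neither passed in this fit. The difference between the Dex groups, pre-treated minus late-treated, was -0.10 with a 95% interval of -0.68 to 0.48 (limma adjusted p = 1). The order of the mean densities was thus late-treated above pre-treated by less than their spread, and LPS alone above both.

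Other readings of Il12b-H ran the same way. Its z-score was 13.4 and 21.7 in the pre-treated libraries, 16.0 and 20.5 in the late-treated ones, and under LPS alone 39.5 and 45.2. By maximum density it ranked 18122 of 34646 and 13253 of 44686 in the pre-treated lists, 14291 of 29347 and 14447 of 44447 in the late-treated lists, and 6068 of 48084 and 2668 of 51834 in the LPS lists. Ranks in lists of unequal length are not comparable, so its standing among the shared regions was also taken. There it stood at the percentiles 31.6 and 47.95 with Dex before LPS, 44.5 and 43.7 with late Dex, and 75.75 and 89.3 with LPS alone. Under LPS alone the region was thus among the stronger shared regions of each library, and in every Dex library it lay below the middle.

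The hotspot of Il12b-H was also narrower with Dex. It spanned 592 and 667 bp in the pre-treated libraries, 592 and 682 bp in the late-treated ones, and with LPS alone 1087 and 949 bp. Narrower hotspots were common in the Dex lists: all 4 Dex libraries lay below both LPS libraries in 7 of the 15 shared member regions and in 33.9% of all shared regions. Densities came in whole steps, of 0.334 to 0.443 by library. In such steps the maximum of Il12b-H stood at 31 and 50 steps in the pre-treated, 40 and 40 in the late-treated and 103 and 128 in the LPS libraries. If a step is 1 tag, which no source states, these are the tag numbers behind the densities.

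The call for Il12b-H depended on single libraries. Leaving out LPS replicate 2 gave a log2 difference of -1.02 for both Dex groups (limma adjusted p = 0.407), and leaving out pre-treated replicate 1 gave -1.18 (0.0514). It also missed the threshold with median scaling in place of quantiles (-1.26, limma adjusted p = 0.0983), with average density (-1.05, 0.102) and with lists of equal length (-1.32, 0.0538). The same held with a stricter overlap (-1.33, 0.0526) and with regions listed by at least 3 libraries (-1.32, 0.156). The region passed with z-scores (-1.16, limma adjusted p = 0.0168), with merging up to 500 bp (-1.33, 0.0213) and with the replicate number as a block (-1.32, 0.00198). With any 1 of the remaining libraries left out, the log2 difference for both Dex groups lay between -1.63 and -1.29.

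**Figure D2:**
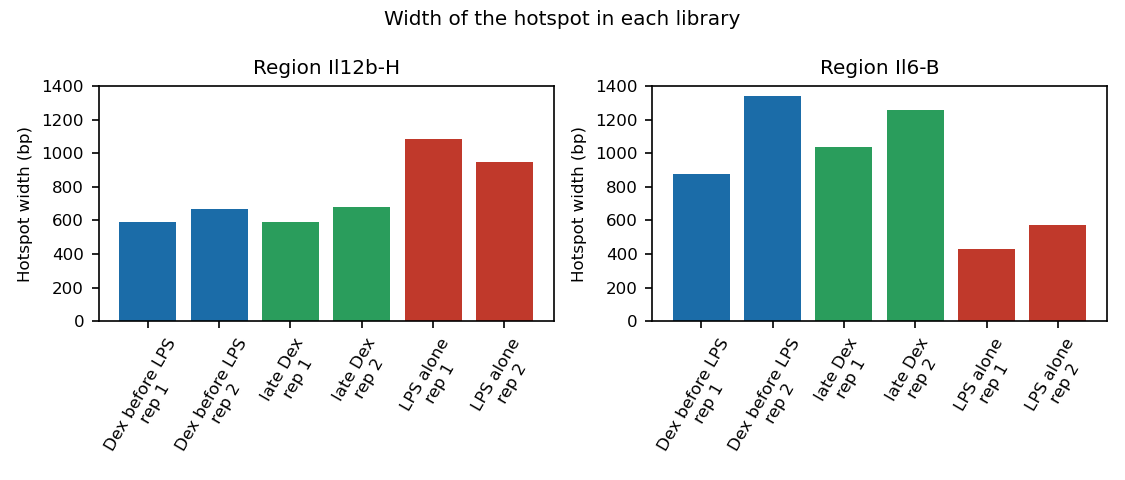
Hotspot width in bp (y axis, from 0) of Il12b-H and Il6-B in each library (x axis, bars coloured by group). Il12b-H spans 592 to 682 bp in the 4 Dex libraries and 949 and 1087 bp with LPS alone, whereas Il6-B spans 879 to 1342 bp in the Dex libraries and 428 and 573 bp with LPS alone.

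Region Il12b-F, at chr11:44203229-44204284, lay 2 shared regions before Il12b-H. Its maximum density was 19.4 and 23.5 in the pre-treated libraries, 24.4 and 26.6 in the late-treated ones, and with LPS alone 30.8 and 38.9. All 4 Dex libraries lay under both LPS libraries here too, by a smaller gap. The log2 difference of both Dex groups from LPS was -0.62 ± 0.22 (SE; limma adjusted p = 0.315). It was -0.76 with Dex before LPS (0.307) and -0.47 with late Dex (0.723). None of these passed in this fit. A fit with the replicate number as a block, given below, called the region lower with Dex before LPS. Without LPS replicate 2 the difference was -0.33 with both groups, -0.48 with Dex before LPS and -0.19 with late Dex, and without LPS replicate 1 it was -0.75 with late Dex. Its z-scores were 38.1 and 39.8 in the pre-treated, 53.5 and 41.1 in the late-treated and 65.2 and 55.55 in the LPS libraries.

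Region Il12b-B, at chr11:44162915-44163647, had its higher values with Dex. The maximum density was 13.6 and 11.4 in the pre-treated libraries, 11.6 and 11.96 in the late-treated ones, and with LPS alone 9.03 and 7.29. Although all 4 Dex libraries lay above both LPS libraries, the log2 difference of 0.57 ± 0.22 for both Dex groups (SE) did not pass (limma adjusted p = 0.365), and it was 0.37 without LPS replicate 2. It is a weak region, at percentiles between 3.72 and 35.0 of the shared regions.

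The strongest shared region of the Il12b window by mean percentile, Il12b-J at chr11:44283319-44285166, did not pass in any comparison. It had 31.7 and 22.8 in the pre-treated libraries, 25.2 and 24.8 in the late-treated ones and with LPS alone 31.1 and 30.55, in units of maximum density. The pre-treated libraries spanned the values of both other groups. The log2 difference of both Dex groups was -0.29 ± 0.21 (SE; limma adjusted p = 0.773). Il12b-E and Il12b-G, the other shared regions, gave log2 differences of 0.13 and -0.14 with both Dex groups, and their libraries overlapped. The median of the 6 shared Il12b regions was -0.21, against -0.0045 over all shared regions. It was 0.11 for the 3 shared Il6 regions and 0.02 for the 6 shared Nos2 regions.

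Of the 5 Il12b regions that some libraries did not list, Il12b-D at chr11:44186231-44186921 separated the groups. Both LPS libraries listed it, at maximum densities of 7.02 and 8.33 and z-scores of 9.77 and 14.6, and no Dex library did. The first of these z-scores is under the lowest listed value of late-treated replicate 1, 11.6, so that list could not have held a hotspot that weak. Il12b-C was listed by late-treated replicate 2 and LPS replicate 2, Il12b-I by late-treated replicate 2 and LPS replicate 1, and Il12b-A by LPS replicate 1 alone. Il12b-K, at chr11:44289798-44290805, was missing from late-treated replicate 1 and had 9.47 to 14.6 in the other Dex libraries and 8.70 and 12.5 with LPS alone.

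**Figure D3:**
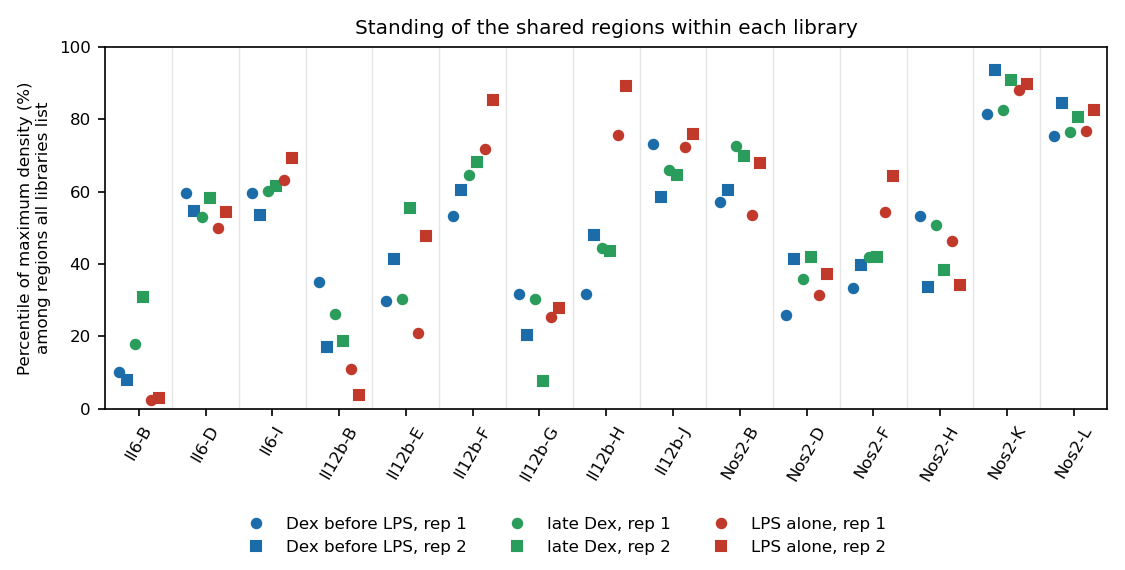
Percentile of maximum density among the 25091 regions that all libraries list (y axis, %) for the 15 shared member regions (x axis), 1 point per library, coloured by group and shaped by replicate. Il12b-H falls below 50 in the 4 Dex libraries and reaches 75.75 and 89.3 with LPS alone, and Nos2-K stays between 81.5 and 93.6 in all 6.

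In the Il6 window, 3 of 13 regions were shared and none passed in any comparison of the fit described above. The strongest, Il6-I at chr5:30338928-30340871, had maximum densities of 22.2 and 20.9 in the pre-treated libraries, 22.0 and 23.5 in the late-treated ones, and with LPS alone 25.1 and 26.4. All 4 Dex libraries lay under both LPS libraries by a small margin. The log2 difference of both Dex groups was -0.23 ± 0.20 (SE; 95% interval -0.66 to 0.20; limma adjusted p = 0.842), and it was -0.13 without LPS replicate 2. Its z-scores kept the same order, at 39.7 and 38.3 in the pre-treated, 38.7 and 40.4 in the late-treated and 53.7 and 48.9 in the LPS libraries. Il6-J at chr5:30340880-30341596 began 9 bp after it and was missing from late-treated replicate 1. It had 7.00 and 9.49 in the pre-treated libraries, 13.7 in late-treated replicate 2, and 7.36 and 10.8 with LPS alone, so the groups overlapped.

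Region Il6-B, at chr5:30262096-30263438, stood higher with Dex. It is a weak region, at percentiles between 2.40 and 30.85 of the shared regions, and at 2.40 and 2.99 with LPS alone. Its maximum density was 8.24 and 9.11 in the pre-treated libraries, 10.0 and 14.6 in the late-treated ones, and with LPS alone 6.35 and 6.94. All 4 Dex libraries lay above both LPS libraries. The log2 difference was 0.38 ± 0.24 with Dex before LPS (SE; limma adjusted p = 0.75), 0.85 ± 0.24 with late Dex (0.208) and 0.62 ± 0.20 with both groups (0.251). None passed on maximum density in this fit. On z-scores, which were 18.4 and 16.95 in the pre-treated, 22.1 and 24.8 in the late-treated and 9.05 and 10.97 in the LPS libraries, the same fit called the region higher with late Dex (log2 difference 1.25, limma adjusted p = 0.0236) and with both groups (1.02, 0.02). On z-scores, 155 of all shared regions were called with late Dex and 264 with both groups. Il6-B did not enter the fits with lists of equal length or with the stricter overlap. The hotspot spanned 879 and 1342 bp in the pre-treated libraries, 1039 and 1258 bp in the late-treated ones, and with LPS alone 428 and 573 bp. A wider hotspot in all 4 Dex libraries was uncommon: it occurred in 1 of the 15 shared member regions and in 1.46% of all shared regions. Late-treated cells had the higher mean of the 2 Dex groups, 12.3 ± 3.26, against 8.67 ± 0.62 in pre-treated cells (SD, n = 2 each), a log2 difference of -0.47 for pre-treated minus late-treated (95% interval -0.98 to 0.04; limma adjusted p = 1).

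Il6-D, at chr5:30273720-30275464, had 22.2 and 21.3 in the pre-treated, 18.8 and 22.1 in the late-treated and 19.1 and 20.1 in the LPS libraries, in units of maximum density. These values overlapped, with a log2 difference of 0.11 ± 0.20 for both Dex groups (SE; limma adjusted p = 0.953).

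The other Il6 regions were listed in part. Il6-M, at chr5:30399663-30400342, was listed in both pre-treated libraries, at maximum densities of 9.47 and 11.4, in neither late-treated library, and in both LPS libraries at 6.69 and 7.64. It was the 1 member region that both pre-treated and neither late-treated library listed, a pattern found in 1.53% of all regions. Its LPS z-scores of 9.91 and 10.5 were under the 11.6 at which the list of late-treated replicate 1 begins, but above the 8.98 of replicate 2. Il6-H, at chr5:30335912-30336203, was in both LPS lists at 5.35 and 5.90, with z-scores of 8.19 and 9.36, and in no Dex list. The first of these z-scores lies under the lowest listed value of every Dex list, and the second under that of late-treated replicate 1 alone. Pre-treated replicate 1 did not list Il6-E and Il6-G. Il6-E had 15.6 in pre-treated replicate 2, 8.00 and 18.6 in late-treated replicates 1 and 2, and with LPS alone 8.36 and 10.8. Il6-G had 13.3 in pre-treated replicate 2, 7.60 and 13.7 in late-treated replicates 1 and 2, and with LPS alone 12.7 and 14.6. Of the 5 regions in a single library, Il6-A and Il6-F were in late-treated replicate 2, Il6-C in pre-treated replicate 2, and Il6-K and Il6-L in LPS replicate 2.

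In the Nos2 window, 6 of 12 regions were shared, and none passed the test in any comparison. The strongest were the neighbours Nos2-K, at chr11:78796016-78797105, and Nos2-L, at chr11:78797921-78799101. Nos2-K had maximum densities of 42.4 and 58.1 in the pre-treated libraries, 42.8 and 48.3 in the late-treated ones, and with LPS alone 53.5 and 45.1. Nos2-L had 34.2 and 40.6, 34.4 and 35.0, and 35.45 and 35.75 in the same groups. The groups overlapped in both regions. The log2 difference of both Dex groups from LPS was -0.07 for Nos2-K (95% interval -0.59 to 0.44; limma adjusted p = 0.976) and -0.01 for Nos2-L (adjusted p = 0.997).

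Of all shared regions, 9.49% had lower percentiles in all 4 Dex libraries than in both LPS libraries, and 9.12% had higher ones. Nos2-F, at chr11:78733605-78734682, was the 1 of 6 shared Nos2 regions in which all 4 Dex libraries lay on 1 side of both LPS libraries. Its maximum density was 13.2 and 16.7 in the pre-treated libraries, 15.2 and 17.3 in the late-treated ones, and with LPS alone 20.7 and 23.95. The Dex values were the lower ones. The log2 difference was -0.59 with Dex before LPS (limma adjusted p = 0.441), -0.47 with late Dex (0.68) and -0.53 ± 0.20 with both groups (SE; 0.362), and none passed. Its z-scores were also lower in all 4 Dex libraries, at 20.9 and 22.5 in the pre-treated, 21.4 and 25.2 in the late-treated and 33.3 and 26.7 in the LPS libraries. Nos2-E, at chr11:78732957-78733589, ended 16 bp before it. Late-treated replicate 2 listed Nos2-E at a maximum density of 8.86 and both LPS libraries at 8.70 and 9.02, while neither pre-treated library listed it.

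The remaining shared Nos2 regions did not separate Dex from LPS. Nos2-B, at chr11:78700131-78701357, had 21.0 and 23.5 in the pre-treated, 30.4 and 27.5 in the late-treated and 20.4 and 25.7 in the LPS libraries. Both late-treated libraries lay above all others there, with a log2 difference of -0.40 ± 0.24 for pre-treated minus late-treated (SE; limma adjusted p = 1). Nos2-D and Nos2-H gave log2 differences of 0.05 and 0.09 with both Dex groups.

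Of the Nos2 regions listed in part, Nos2-A at chr11:78689537-78690074 was in late-treated replicate 2, at 6.20, and in both LPS libraries, at 7.69 and 7.98, but in neither pre-treated library. Nos2-C, at chr11:78702363-78703186, had 9.87 in pre-treated replicate 2, 7.60 and 10.2 in late-treated replicates 1 and 2, and with LPS alone 13.0 and 13.9. Nos2-J, at chr11:78786820-78787445, had 9.47 in pre-treated replicate 1, 9.30 in late-treated replicate 2, and 12.04 and 14.9 with LPS alone. In Nos2-A, Nos2-C and Nos2-J each listed Dex value was under both LPS values, and in Il6-M each was over both. How often either order occurs among all partly listed regions was not counted, and these densities may not be comparable between lists. Nos2-I had 7.53 to 8.35 in the 2 Dex libraries that listed it and 7.69 and 7.98 with LPS alone. Nos2-G was in both replicate 2 libraries of the Dex groups, at 11.8 and 12.4, and in LPS replicate 2 at 7.64.

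**Figure D4:**
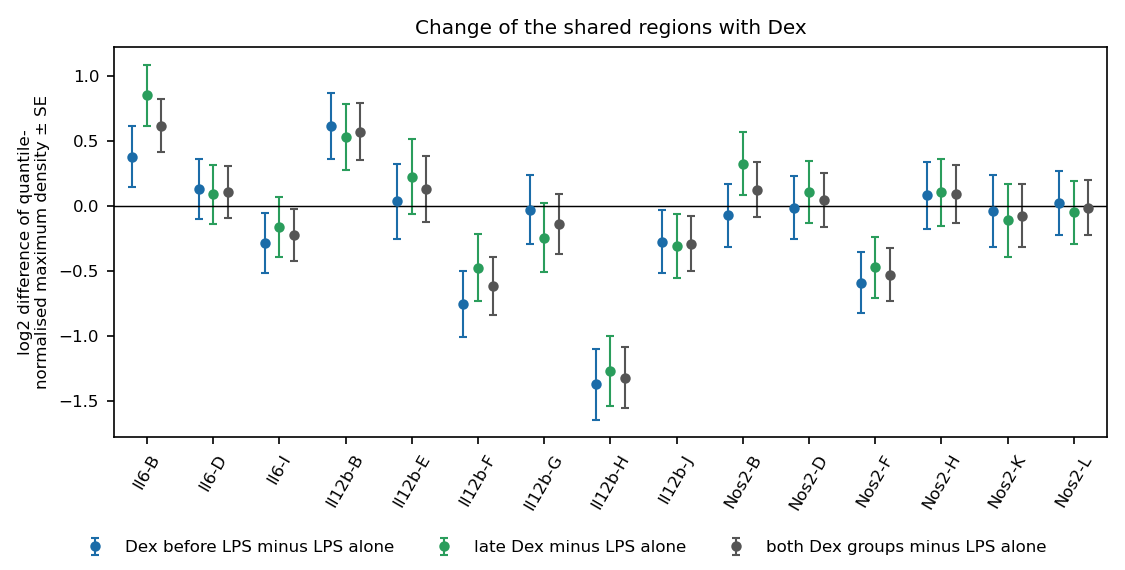
Log2 difference of quantile-normalised maximum density (y axis, points with SE bars from limma) for the 15 shared member regions (x axis), shown for Dex before LPS, late Dex and both Dex groups, each minus LPS alone. Il12b-H lies at -1.37, -1.27 and -1.32, while the other 14 regions lie between -0.76 and 0.85. All 3 comparisons use the same LPS libraries.

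Across the 15 shared member regions, limma called 0 changed with Dex before LPS, where 0.363% of all shared regions were called, and 4 had an unadjusted p under 0.05 (8.96% of all). With late Dex it called 0 of 15, against 0.283% of all (0.0159% lower), and 2 had an unadjusted p under 0.05 (7.8% of all). With both Dex groups 5 of 15 had an unadjusted p under 0.05 (9.79% of all). Between pre-treated and late-treated cells it called 0 of 15 and 0 of all 25091, and 0 of 15 had an unadjusted p under 0.05 (3.28% of all). Of the 15, 4 regions (Il12b-F, Il12b-H, Nos2-F and Il6-I) had lower percentiles in all 4 Dex libraries than in both LPS libraries, a pattern of 9.49% of all shared regions. Another 2 (Il12b-B and Il6-B) had higher percentiles, against 9.12% of all. The median log2 difference of the 15 regions was -0.01 with both Dex groups and -0.0045 over all shared regions.

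The LPS lists were longer, and their part in which regions were listed was not tested. Both LPS libraries and no Dex library listed 2 of the 36 member regions (Il12b-D and Il6-H), against 5.18% of all regions. Both LPS and neither pre-treated library listed 4 (those 2, Nos2-A and Nos2-E), against 8.48% of all. Both LPS and neither late-treated library listed 3 (Il12b-D, Il6-H and Il6-M), against 9.22%. Conversely, 0 of 36 were in both pre-treated and neither LPS library (0.957% of all), 0 in both late-treated and neither LPS library (0.547%), and 0 in both late-treated and neither pre-treated library (0.35%).

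The length covered by hotspots in each window differed in one direction in all 3 windows. In the Il6 window it was 5111.5 ± 1849 bp with Dex before LPS, 5210 ± 2285 bp with late Dex and 7405.5 ± 694 bp with LPS alone (SD, n = 2 each). In the Il12b window it was 5938 ± 571 bp, 5801 ± 1484 bp and 7934.5 ± 29.0 bp in the same groups. In the Nos2 window it was 6385 ± 1328 bp, 6908.5 ± 2047 bp and 8986.5 ± 404 bp. Every Dex library covered less than both LPS libraries in each window. The same held for the whole lists. They covered 28.1 and 37.65 Mb in the pre-treated, 23.5 and 36.2 Mb in the late-treated and 40.6 and 44.3 Mb in the LPS libraries. For the 4 Dex against the 2 LPS libraries the exact two-sided permutation p was 0.133 in each window, and no p under 0.0667 is possible with these numbers of libraries. As a share of the length covered in the whole list, the Dex and LPS values overlapped in all 3 windows. In the Il6 window the shares were 0.0135% and 0.01705% of the pre-treated, 0.0153% and 0.0188% of the late-treated and 0.0170% and 0.0178% of the LPS lists. In the Nos2 window they were 0.0194% and 0.01945% of the pre-treated, 0.0233% and 0.0231% of the late-treated and 0.0214% and 0.0209% of the LPS lists. In the Il12b window they were 0.0197% and 0.0169% of the pre-treated, 0.0203% and 0.0189% of the late-treated and 0.0196% and 0.0179% of the LPS lists.

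**Figure D5:**
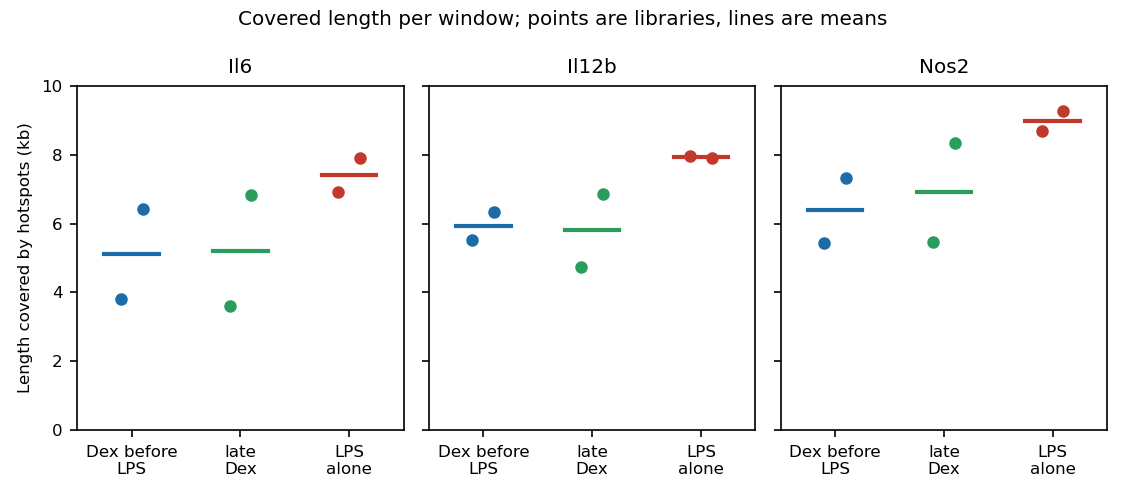
Length covered by hotspots in kb (y axis, from 0) in the Il6, Il12b and Nos2 windows, by group (x axis); points are libraries and lines are means of 2. In each window all 4 Dex libraries lie under both LPS libraries, and all 4 Dex lists also hold fewer hotspots than both LPS lists.

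The windows have fixed edges, so the nearest regions on either side were also read. At the right edge of the Il12b window, Il12b-K had z-scores of 12.8 to 17.8 in 5 libraries, and the next region outside, at chr11:44290884-44292534, had 25.4 to 34.2 in all 6. At the left edge of the Il6 window, Il6-A was in 1 library at 9.58, and the region outside at chr5:30246259-30247551 had 26.0 to 39.6 in all 6. At the right edge, Il6-M had 9.91 to 16.5 in 4 libraries and the region outside, at chr5:30440154-30441802, 17.2 to 30.2 in all 6. Left of the Il12b window, Il12b-A was in 1 library at 8.01, and the region outside, at chr11:43753908-43754684, had 9.57 to 18.8 in 5. At the Nos2 edges the regions outside were weak, at 9.42 to 9.57 in 2 libraries on the left and 9.39 to 13.2 in 3 on the right, next to Nos2-A at 9.37 to 11.4 and Nos2-L at 47.2 to 67.8.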

How the data were processed

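DNase-seq was done on 6 libraries in 3 groups, named from the sample titles. The digestion of nuclei lasted 3 min at 37 °C with 80 U/ml of enzyme, and cut fragments between 100 and 500 bp were selected, per the labels' protocols. The submitters' processing notes name CASAVA and the build mm9. Which aligner and hotspot caller were used is not given in the sources used here. The authors deposited 1 hotspot list per library. Per the file headers, the deposited signal values are the maximum and average tag density, the deposited score is a z-score, and each hotspot has a deposited p-value, which was not used. Positions are printed as deposited, because no source says whether they count from 0 or 1. No source gives the total of tags per library, so depth is unknown and no counting interval was computed. Deposited maximum densities lay within 0.1 of a whole number of steps for 100% of hotspots, with a step of 0.334 to 0.443 by library.

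Overlapping hotspots of all libraries were merged. Where a library had several hotspots in a region, the highest density and the summed width were used. The log2 maximum density of regions listed by all 6 libraries was quantile-normalised and fitted in 1 model of 3 groups (limma 3.58.1, R 4.3.3). The fit was also run on data simulated with independent noise in each library. That run cannot show how the fit behaves when same-numbered libraries deviate together. In the fit of the report, a region missing from any list was left out. In the alternative with regions listed by at least 3 libraries, each missing value was set to that library's lowest listed value. Covered lengths were compared with exact permutation tests. The members, regions and motif letters were chosen with earlier results of these data known. The rule for regions described library by library took those that passed a test or whose listing separates groups, and the strongest shared region of each window. The others described so were added after their values were seen. Alternatives were median scaling, average density, z-score, looser or stricter listing, wider merging, lists of equal length, a common minimum z-score, the stronger 50% of each list, coverage as a share of the list, a block for the replicate number, and the omission of each library in turn.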

Additional observations from a re-analysis of the deposited data

How the results depend on the processing

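With 2 libraries a group, tests see only large differences, and a region enters the fit only if all 6 libraries list it. A library left alone in its group is assumed to vary like the others. Member regions that passed with both Dex groups against LPS numbered 1 in the report. They numbered 2 with z-scores and 0 with median scaling, average density, regions listed by at least 3 libraries, a cover of 50% and lists of equal length. With Dex before LPS they numbered 0 in the report, 1 with z-scores and 1 with merging up to 500 bp. With that merging, 93 of all 24006 tested regions were called with Dex before LPS. With late Dex they numbered 0 in the report and 1 with z-scores. On z-scores, 179 of all shared regions were called with Dex before LPS and 155 with late Dex. The pre-treated against late-treated count was 0 in all 14 alternatives. The direction of Il12b-H was the same in all 14 alternatives, from -1.63 to -1.02 with both Dex groups, with adjusted p-values between 0.00198 and 0.407. Over all shared regions, the calls with both Dex groups numbered 206 (72.8% higher), and 41 with median scaling (90.2% higher). They numbered 264 with z-scores, 97 with average density, 429 with regions listed by at least 3 libraries, 28 with a cover of 50% and 22 with lists of equal length.

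Nothing in the labels says that replicate numbers pair the libraries. Same-numbered libraries deviated together from their group means, with correlations of 0.437 to 0.497 across the 25091 shared regions. With the replicate number as a block, 2 member regions passed with Dex before LPS (Il12b-H and Il12b-F, limma adjusted p = 0.00497 and 0.0477), 2 with late Dex (Il12b-H and Il6-B, 0.00823 and 0.0347) and 2 with both Dex groups (Il12b-H and Il6-B, 0.00198 and 0.0492). Calls over all shared regions then numbered 849 with Dex before LPS (48.8% higher), 571 with late Dex (63.4% higher) and 1046 with both Dex groups (54.2% higher), against 91, 71 and 206 without it (69.2%, 94.4% and 72.8% higher). Covered length then had exact permutation p = 0.111 in each window, the smallest p possible with that block.

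Covered length changed sign in 3 cases. With lists of equal length the Il6 window was higher in Dex libraries by 42.5 bp (exact permutation p = 0.933), and the difference was -239 bp in the Il12b window (0.733) and -848 bp in the Nos2 window (0.2). At a common minimum z-score it was -735 bp for Il6, -1596 bp for Il12b and -1615 bp for Nos2, and in the stronger 50% of each list -1383 bp for Il6. As a share of the list, the Dex libraries were higher by 0.00019 percentage points in the Il12b window (exact permutation p = 0.933) and by 0.000107 in the Nos2 window (0.8). With each library left out the difference stayed between -2800 and -1722.5 bp for Il6, -2392 and -1692.5 bp for Il12b, and -2909.5 and -1939.5 bp for Nos2.

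The listing alternatives were chosen after seeing the data. Regions in both LPS and no Dex library numbered 0 with lists of equal length and 1 at a common minimum z-score, and between 2 and 5 with each library left out. Those in both LPS and neither pre-treated library numbered 1 and 1, and 4 to 8. Those in both LPS and neither late-treated library numbered 0 and 1, and 3 to 9. Those in both pre-treated and neither LPS library numbered 1 with a cover of 50%, 3 with lists of equal length and 1 at a common minimum z-score, and 0 to 1. Those in both late-treated and neither LPS library numbered 1, 2 and 1 in these settings, and 0 to 2. Those in both pre-treated and neither late-treated library numbered 0 at a common minimum z-score, and 1 to 3. Those in both late-treated and neither pre-treated library numbered 1 with lists of equal length, and 0 to 6. Shares of all regions in these settings were not counted, nor the causes tested.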
